A study of Drosophila melanogaster with 9 samples.

Results

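The genes described here encode 6 transcription regulators that muscle, heart-associated cells and motor neurons share, namely the LIM-homeodomain factors Lim1, Lim3 and tup (tailup, also islet), the homeodomain factor Ptx1, and the co-activators eya (eyes absent) and vg (vestigial). They were found as probe sets whose array annotation gave exactly 1 of these symbols, which gave 7 of 16377 probe sets, 2 of them for Lim1 and 1 for each other gene; they stand for 6 of the 10563 genes that had a probe set of their own. Probe sets were matched by gene name and not by a measured value, but the genes themselves were chosen with earlier results of these data known. In RefSeq's table for the Drosophila melanogaster assembly Release 6, Lim1 lies on chromosome X, Lim3, tup and eya on arm 2L, vg on arm 2R and Ptx1 on arm 3R, and all 6 are protein coding.

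LIM-homeodomain proteins bind DNA through a homeodomain and bind partner proteins, above all Chip (Chi), through a pair of LIM domains. Which of them a cell contains helps to set its identity: in the fly nerve cord tup and Lim3 together mark classes of motor neurons, and in the mesoderm tup acts in dorsal muscles and in the formation of the heart and lymph gland. Ptx1 is the fly homologue of the vertebrate Pitx genes and has been described in ventral muscles, gut and nervous system. Eya works with DNA-binding proteins of the sine oculis family, and Vg with the TEAD-family protein Scalloped, so that neither binds DNA by itself.

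Transcripts were measured on Affymetrix Drosophila Genome 2.0 arrays in cells sorted by fluorescence from stage 13 embryos, which came from 2 h egg lays aged for 8 h at 25 °C. In ap_GFP cells GFP was driven by an apterous enhancer active in muscle. RFP in slou_RFP cells was driven by a slouch enhancer active in muscle. Cells of the reference, twi_actin_GFP, made actin-GFP from the twist promoter. All 3 reporters were labelled as somatic mesoderm, and each had 3 arrays from independent sorts, 9 arrays in all. Purity on resorting was 74%, 87% and 95% in that order, so that the sorted fractions also held other cells. No other genotype or treatment was named. Each reporter labels the cells in which its own enhancer or promoter drove the fluorophore.

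The values are log2 signals after robust multi-array averaging (RMA) by the submitters, and a difference of 1 is a doubling. RMA gives no detection call. The array medians lay between 4.47 and 4.61, and probe sets near them are called dim below, which neither shows nor denies a transcript. Levels of different probe sets cannot be set against each other. A pair of arrays stood apart from the other muscle reporter arrays. Within its group slou_RFP replicate 2 correlated at r = 0.970 with each other array, and ap_GFP replicate 3 at r = 0.984 and 0.986, against 0.995 to 0.998 for all other pairs within groups. Results that rest on them are given with and without them. Of 8 markers of fusion-competent myoblasts and mesoderm, all 8 were higher on both muscle reporters than on twi_actin_GFP, among them twi itself, while the summed signals of the midgut, hemocyte and fat body lists were highest on twi_actin_GFP. This group is therefore called by its label.

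Against twi_actin_GFP, 3 of the 7 probe sets, those of Lim3, tup and eya, were lower on both muscle reporters, and no other was lower on either. In the fit over all 16377 probe sets (limma, Benjamini-Hochberg adjusted p below 0.05), 12.2% of all probe sets were called lower on ap_GFP and 12.9% on slou_RFP. Ptx1 was called higher on slou_RFP and not on ap_GFP, where 11.1% and 9.78% of all probe sets were higher. The 2 probe sets of Lim1 and that of vg were called in neither comparison. In all, 3 of 7 were called on ap_GFP against 21.9% of all probe sets, and 4 of 7 on slou_RFP against 24.1%. The comparisons share their 3 twi_actin_GFP arrays and are therefore not independent of each other. In these bulk samples, fewer cells that contain a transcript and less transcript per cell cannot be told apart.

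**Figure D1:**
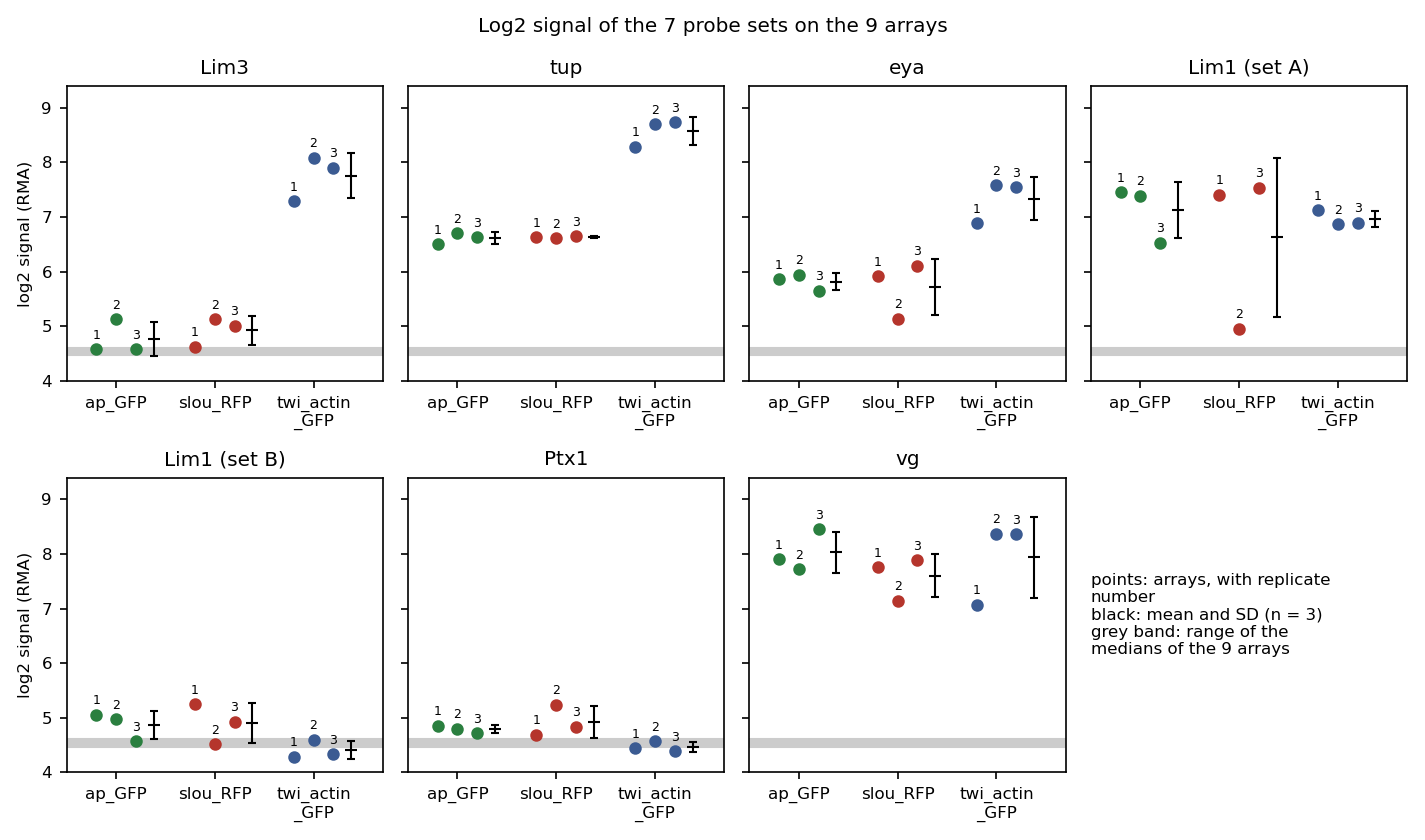
Log2 signal (vertical axis) of each probe set on the 9 arrays by reporter (horizontal axis); points are arrays with their replicate number, black marks the mean and SD of 3 arrays, and the grey band the range of the array medians (4.47 to 4.61). Lim1 set A is the Lim1 probe set with the higher mean over the 9 arrays, and set B the other. Lim3, tup and eya lie higher on all 3 twi_actin_GFP arrays than on any muscle reporter array, while Lim1 set A falls to 4.95 on slou_RFP replicate 2 and vg to 7.07 on twi_actin_GFP replicate 1.

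Lim3, the fly homologue of Lhx3 and Lhx4, had the widest separation of the 6 genes. Its signal was 4.58, 5.13 and 4.58 on the ap_GFP arrays, 4.62, 5.13 and 5.01 on the slou_RFP arrays, and 7.29, 8.08 and 7.90 on the twi_actin_GFP arrays. All 6 muscle reporter arrays were dim for Lim3, and the nearest of them lay 2.15 below the lowest twi_actin_GFP array. The Lim3 signal fell by 2.99 ± 0.24 (SE, 3 arrays a group) in ap_GFP cells (limma, adjusted p = 5.13e-05). In slou_RFP cells it fell by 2.84 ± 0.24 (limma, adjusted p = 6.73e-05). Both are differences in log2 signal, and no fold in transcript is given, since Lim3 was not shown above background on the muscle reporter arrays.

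The other LIM-homeodomain gene with a clear difference was tup, which takes part in the identity of motor neurons and dorsal muscles. Its signal was 6.50, 6.71 and 6.63 on ap_GFP, 6.63, 6.61 and 6.65 on slou_RFP, and 8.29, 8.70 and 8.74 on twi_actin_GFP. The 6 muscle reporter arrays spanned only 0.20 between lowest and highest, and on slou_RFP the SD was 0.020, the smallest among the 7 probe sets there. Against the reference the difference of tup was -1.96 ± 0.13 for ap_GFP, a fall of 3.89 times (limma, adjusted p = 1.81e-05). For slou_RFP it was -1.94 ± 0.13, or 3.84 times (limma, adjusted p = 1.72e-05). The lowest muscle reporter array for tup still lay 1.90 above the highest array median. The divergent arrays, slou_RFP replicate 2 and ap_GFP replicate 3, did not part from the rest for tup.

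Eya, a phosphatase and co-activator of sine oculis family factors, is known from eye development and also acts in embryonic muscle and in the somatic gonad. Its signal was 5.86, 5.94 and 5.65 on ap_GFP, 5.92, 5.13 and 6.10 on slou_RFP, and 6.89, 7.58 and 7.55 on twi_actin_GFP. No muscle reporter array reached the lowest twi_actin_GFP array, and slou_RFP replicate 2 was the lowest of all 9. The fall was 2.87 times in ap_GFP cells, a log2 difference of -1.52 ± 0.27 (limma, adjusted p = 0.00387). In slou_RFP cells it was 3.07 times, a log2 difference of -1.62 ± 0.27 (limma, adjusted p = 0.00279). On slou_RFP replicate 2 eya lay only 0.52 above the highest array median, at a level called dim for Lim3. The fold for slou_RFP is therefore one of signal and not of transcript. Without ap_GFP replicate 3 and slou_RFP replicate 2 the change was -1.44 and -1.33, and both calls held.

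Groups that do not overlap were common in these comparisons. For Lim3, tup and eya the 3 arrays of each muscle reporter all lay below the 3 of twi_actin_GFP, as did 17.7% of all probe sets on ap_GFP and 17.9% on slou_RFP. The same 3 probe sets were lower in both comparisons by the submitters' threshold (1.7-fold or more, p under 0.05 before adjustment), as were 9.48% and 9.86% of all probe sets. None of the 7 was higher by it, against 4.68% and 3.87% of all. With p under 0.05 before adjustment and no fold limit, 5 of the 7 passed in each comparison, against 34.9% and 39.1% of all. The median difference of all probe sets was 0.11 for ap_GFP and 0.13 for slou_RFP.

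**Figure D2:**
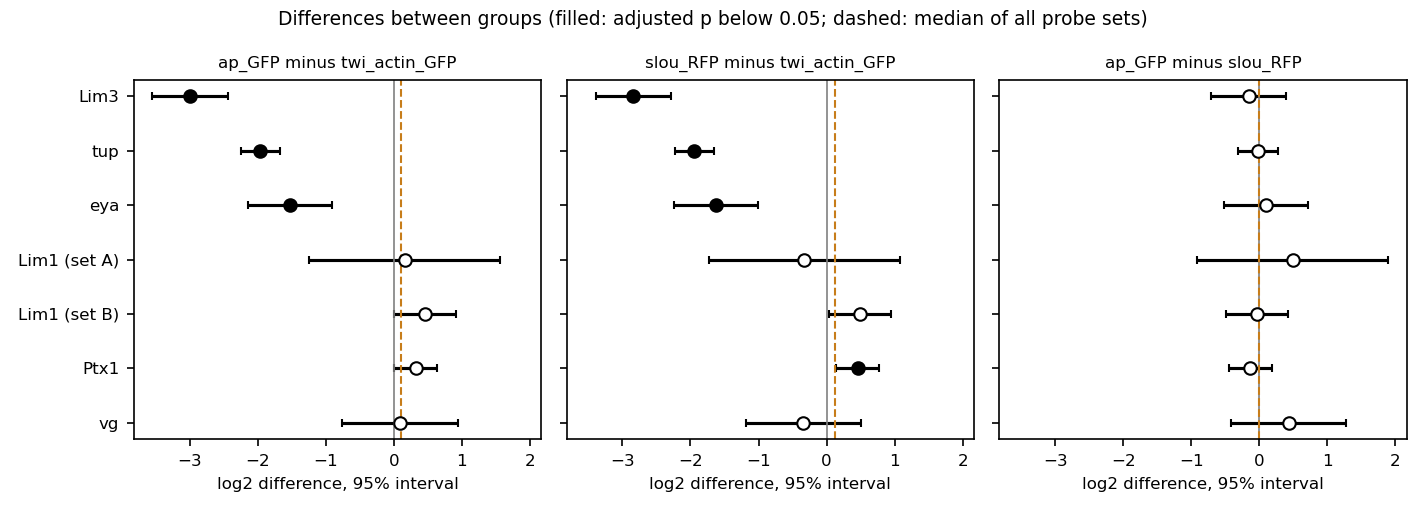
Log2 difference between groups (horizontal axis) with its 95% interval for each probe set (vertical axis), in the 3 comparisons; filled points have an adjusted p below 0.05 and the dashed line is the median of all probe sets. Lim3, tup and eya lie between -2.99 and -1.52 in both comparisons with twi_actin_GFP, and all 7 intervals include 0 between the muscle reporters.

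Markers of several other cell types were lower on the muscle reporters as well, and their part in the result for Lim3, tup and eya was not tested. All 7 of the 7 listed motor neuron identity factors were measured. On ap_GFP 1 was higher and 3 lower, and on slou_RFP 2 were higher and 2 lower. The homeodomain gene exex (HB9), a motor neuron factor that shares cells with Lim3 and tup, fell, with differences of -2.17 ± 0.13 for ap_GFP (limma, adjusted p = 1.32e-05) and -1.99 ± 0.13 for slou_RFP (1.89e-05). The GATA gene grn, which the midgut list below also holds, fell too (-2.86 and -2.81). By contrast zfh1, which motor neurons share with mesodermal cells, rose by 0.92 and 0.77, and HGTX (Nkx6) rose by 0.58 on slou_RFP among dim values. Without both divergent arrays 2 genes of the list were higher and 4 lower on each muscle reporter. The summed linear signal of this list was 3002 to 4273 on ap_GFP, 2711 to 3900 on slou_RFP and 2510 to 2749 on twi_actin_GFP. Without zfh1 the order turned: the sum was 321 to 463 on ap_GFP, 406 to 456 on slou_RFP and 911 to 1084 on twi_actin_GFP. That sum still holds grn, which read 8.71, 9.18 and 9.17 on twi_actin_GFP and is also a midgut gene. It also holds exex, which read 4.16 to 4.55 on the muscle reporter arrays and 6.15, 6.54 and 6.48 on twi_actin_GFP. A sum without grn was not taken, and the part of each gene in the turned order was not tested.

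General neuronal genes did not move in one direction. Of 12 measured of 14, 4 were higher and 3 lower on ap_GFP, and 4 were higher and 2 lower on slou_RFP. Without both divergent arrays 5 were higher and 4 lower on ap_GFP, and 5 higher and 3 lower on slou_RFP. The cadherin gene CadN rose by 1.74 ± 0.20 and 1.55 ± 0.20, the sodium channel gene para, among dim values, by 0.59 and 0.62, and the cytoskeletal gene futsch by 0.88 and 0.83, while the synaptic gene cpx fell (-2.19 and -1.93). The list's summed signal was 3915 to 5091 on ap_GFP, 3801 to 4970 on slou_RFP and 3192 to 3443 on twi_actin_GFP. Bright genes weigh most in such a sum. CadN read 9.51 to 10.37 on the muscle reporter arrays and 8.37 to 8.61 on twi_actin_GFP. The values of elav were 10.68 to 11.33 and 10.31 to 10.51 (named after its values were seen). A sum without these genes was not taken, so its order need not hold for the rest of the list. Of 3 measured genes of motor neuron function, the netrin receptor gene unc-5 rose by 0.88 and 0.81. In the same set, beat-Ia fell by 1.21 on ap_GFP (its change on slou_RFP was -0.95, adjusted p = 0.0599), and VGlut, the vesicular glutamate transporter gene, rose by 0.42 on slou_RFP from dim values. Without ap_GFP replicate 1, or twi_actin_GFP replicate 2 or 3, no gene of this list was lower on ap_GFP.

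Heart and pericardial genes, whose cells also use tup, were mostly lower. Of 11 measured of 13, 1 was higher and 7 were lower on each muscle reporter. Among them Hand, a bHLH gene of heart and visceral muscle, fell most (-4.16 ± 0.19 and -4.44 ± 0.19). The differences were -2.85 and -2.95 for odd, -3.27 and -3.21 for prc, and -2.13 and -2.27 for svp. The summed signal of the list was 1677 to 2346 on ap_GFP, 1607 to 1881 on slou_RFP and 5790 to 6394 on twi_actin_GFP, with no overlap. The tin and org-1 genes of this list were not analysed here.

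The amnioserosa, a further embryonic site of tup, and the gut, a site of Ptx1, also had more marker genes lower than higher on the muscle reporters. Ptx1 itself was not lower on either. Of 4 amnioserosa genes, 3 were lower on each muscle reporter and zen, which was dim, was called higher on slou_RFP. Ance, an angiotensin-converting enzyme gene, differed by -3.36 and -3.15. All 5 measured midgut genes fell, with a summed signal of 755 to 1087 on ap_GFP, 835 to 1126 on slou_RFP and 7156 to 8044 on twi_actin_GFP. The differences were -3.80 and -3.64 for GATAe, -2.45 and -2.68 for srp, and -2.41 and -2.14 for peb. In hindgut and tubule, 3 of 6 fell on each, among them drm (-1.61 and -1.59). Of 6 hemocyte markers 4 were lower and 1, Hml, was higher among dim values on both muscle reporters (named after its values were seen). Fat body markers were lower in 4 of 5 cases, and glial markers lower in 5 of 7 on ap_GFP and 4 of 7 on slou_RFP (6 of 7 without both divergent arrays). Of 7 somatic gonad genes, where eya is a known factor, 4 were measured and only zfh1 was called, while the defining genes tj and Sox100B lay at 3.88 to 4.89 on all 9 arrays and were called in neither comparison.

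**Figure D3:**
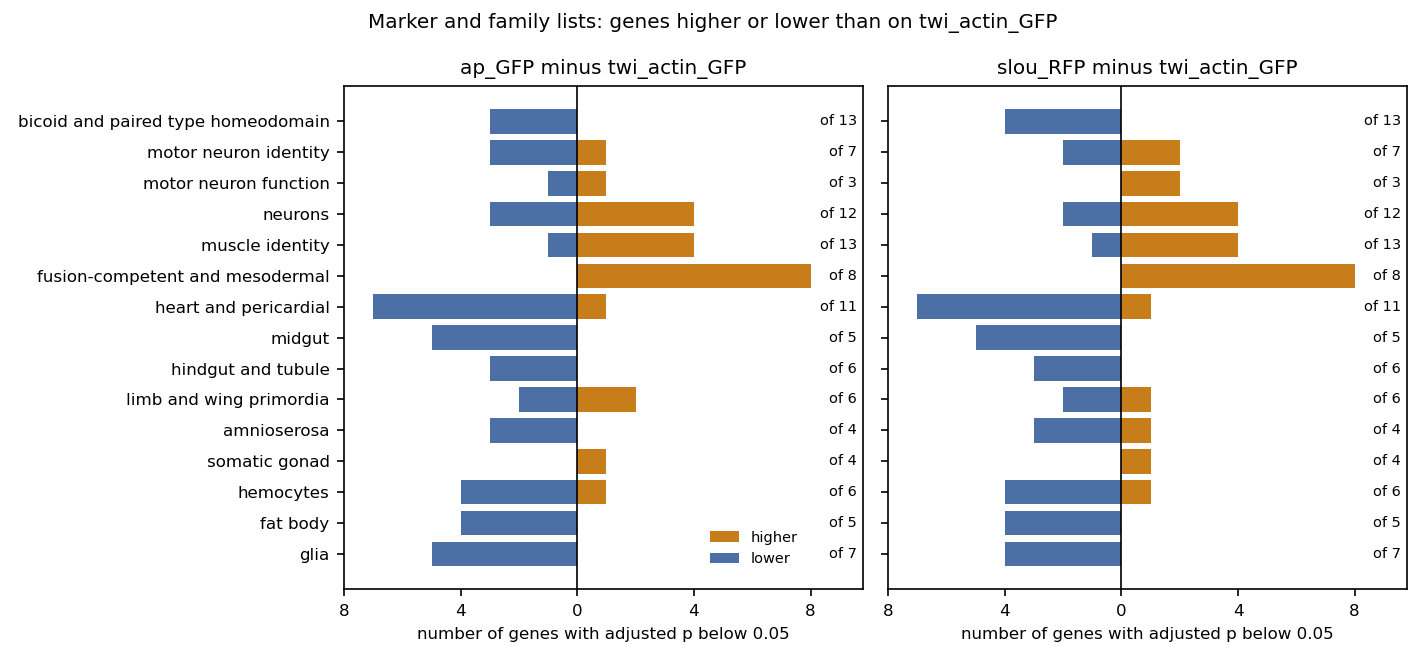
Number of genes with adjusted p below 0.05 (horizontal axis) that were higher (orange, right) or lower (blue, left) than on twi_actin_GFP, for 15 lists of markers or gene families (vertical axis), with the number measured at the right of each row. All 8 fusion-competent and mesodermal genes lie on the higher side and all 5 midgut genes on the lower side in both panels, while neuronal genes lie on both sides.

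Muscle identity genes other than these 6 were read for comparison. Of 13 measured of 17, 4 rose and 1 fell on each muscle reporter. The increases were those of slou (2.57 ± 0.29 on ap_GFP and 2.52 ± 0.29 on slou_RFP), ap, the Pax gene Poxm (1.07 and 0.96) and mid, which lies outside the rule for named genes. The decrease was that of the ladybird gene lbl (-0.86 and -0.94), which was dim on the reference arrays too. Without ap_GFP replicate 3 and slou_RFP replicate 2 the counts were 4 higher and 3 lower on ap_GFP and 5 higher and 4 lower on slou_RFP.

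The fellow LIM genes and cofactors showed no general fall. Of 8 listed, 6 were measured, and 1 rose on ap_GFP and 2 on slou_RFP with none lower. The LIM-homeodomain gene ap had signals of 8.70, 8.45 and 9.76 in ap_GFP cells, of 8.51, 9.16 and 8.53 in slou_RFP cells, and of 7.18, 7.04 and 7.01 in the reference, with increases of 1.89 ± 0.32 (limma, adjusted p = 0.00299) and 1.65 ± 0.32 (adjusted p = 0.00623). Thus ap and its family members tup and Lim3 differed in opposite directions between the same arrays. Chi, the shared LIM cofactor, changed by 0.23 ± 0.09 on ap_GFP (adjusted p = 0.0955) and rose by 0.29 ± 0.09 on slou_RFP (adjusted p = 0.042), while the count of this list fell to 1 when any 1 of the 9 arrays but ap_GFP replicate 3 was left out. Its binding partner Ssdp changed by 0.21 and 0.18 and was not called. Awh, CG4328 and Lmx1a, further LIM-homeodomain genes, were not called either. Awh and CG4328 were below all array medians on all 9 arrays.

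Eya's partners in the retinal network were measured for 5 of 9 genes, without so, Six4, Optix and toe, which were not analysed here. The nuclear factor gene dac, which acts with eya in eye development, was likewise lower on both muscle reporters. Its signal was 4.80, 5.11 and 5.54 on ap_GFP, 4.75, 5.58 and 4.93 on slou_RFP, and 6.42, 6.65 and 6.50 on twi_actin_GFP. The differences were -1.37 ± 0.24 (limma, adjusted p = 0.00368) and -1.44 ± 0.24 (adjusted p = 0.00294). Within each muscle reporter dac was highest on the divergent array, where eya was lowest, so that only the step between groups was shared. The zinc finger gene tsh rose by 0.67 ± 0.11 and 0.66 ± 0.11. Neither ey nor eyg was called. The Pax6 gene toy read 9.11, 8.77 and 4.52 on ap_GFP, 9.08, 4.20 and 8.99 on slou_RFP, and 6.49, 6.27 and 6.30 on twi_actin_GFP, so that the divergent arrays lay below the reference and the other 4 above it. With them left out, 2 genes of this list were higher and 1 was lower in each comparison.

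**Figure D4:**
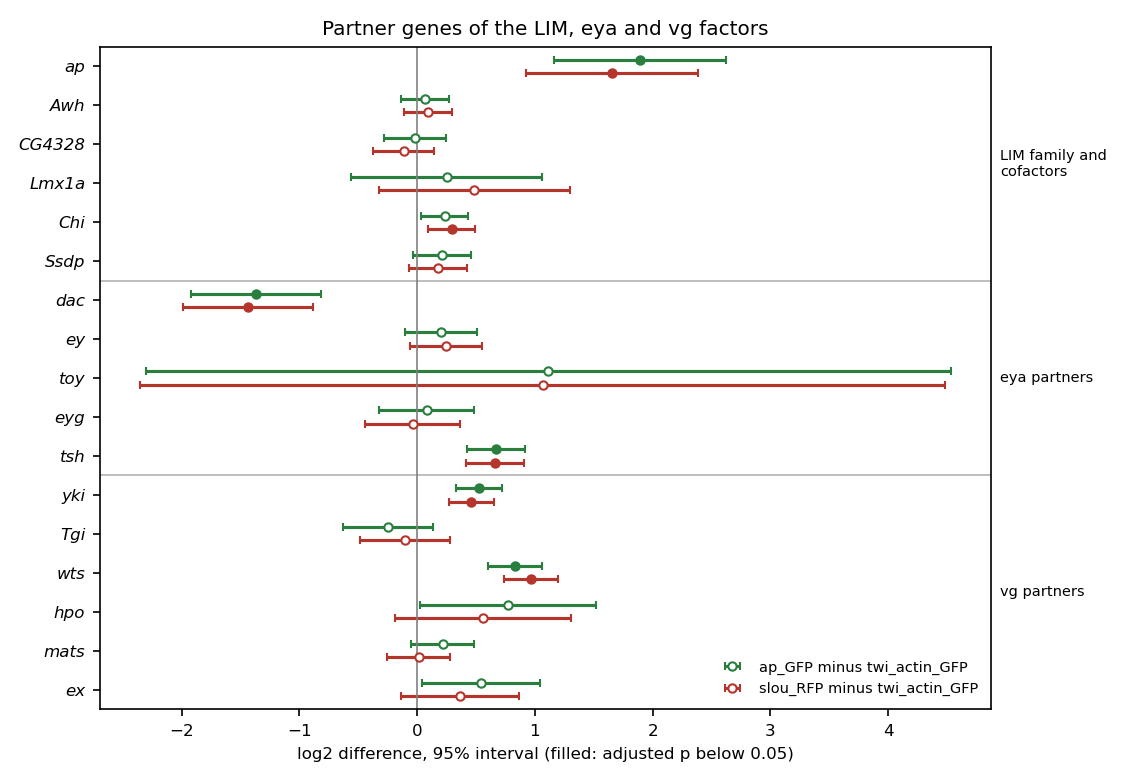
Log2 difference from twi_actin_GFP (horizontal axis) with its 95% interval for measured LIM family and cofactor genes, eya partners and vg partners (vertical axis), in green for ap_GFP and red for slou_RFP; filled points have an adjusted p below 0.05. The gene ap rises by 1.89 and 1.65, dac differs by -1.37 and -1.44, and the interval of toy is the widest.

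Lim1, a homologue of vertebrate Lhx1 and known in the fly from head, limb and brain, had its lowest muscle reporter values on the divergent arrays. On set A, the one of its probe sets with the higher mean, its signal was 7.45, 7.39 and 6.53 on ap_GFP, 7.41, 4.95 and 7.54 on slou_RFP, and 7.13, 6.86 and 6.90 on twi_actin_GFP. The 4 concordant muscle reporter arrays lay between 7.39 and 7.54, above every twi_actin_GFP array, while ap_GFP replicate 3 and slou_RFP replicate 2 lay below every one. The SD was accordingly 1.46 on slou_RFP and 0.51 on ap_GFP, against 0.14 on twi_actin_GFP. With all arrays the difference was 0.16 ± 0.62 on ap_GFP (95% interval -1.24 to 1.57, limma, adjusted p = 0.868) and -0.33 ± 0.62 on slou_RFP (-1.73 to 1.08, adjusted p = 0.703).

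Without both divergent arrays Lim1 was higher on this probe set by 0.46 on ap_GFP (limma, adjusted p = 0.00898) and 0.51 on slou_RFP (adjusted p = 0.00528), the latter with its sign turned. With only slou_RFP replicate 2 left out, the slou_RFP difference was again 0.51 (adjusted p = 0.169). These arrays were left out for their whole profiles, which were known from earlier results of these data to diverge. Without both of them, 3272 of all 16377 probe sets were called higher on ap_GFP, against 1601 with all arrays. On slou_RFP 3383 were called higher, against 1826. The gain of a higher call under this setting was therefore common and not particular to Lim1.

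The other Lim1 probe set, set B, was dim. It read 5.06, 4.97 and 4.57 on ap_GFP, 5.25, 4.52 and 4.92 on slou_RFP, and 4.29, 4.60 and 4.33 on twi_actin_GFP. Here too ap_GFP replicate 3 and slou_RFP replicate 2 were the lowest of their groups. Differences were 0.46 ± 0.20 (limma, adjusted p = 0.142) and 0.49 ± 0.20 (adjusted p = 0.107), and 0.61 (adjusted p = 0.00701) and 0.68 (adjusted p = 0.00388) without both divergent arrays. Higher calls over all probe sets were also more frequent without both divergent arrays, as given for set A. After the group means were removed, the probe sets of Lim1 correlated at r = 0.78 over the 9 arrays, as a description. The array annotation does not say which of the 2 RefSeq transcripts of Lim1 each reads.

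Ptx1, a bicoid-type homeodomain gene, was dim throughout. Its signal was 4.85, 4.80 and 4.71 on ap_GFP, 4.69, 5.24 and 4.84 on slou_RFP, and 4.44, 4.57 and 4.38 on twi_actin_GFP. All 6 muscle reporter arrays lay above the 3 of the reference, by at least 0.12. Of all probe sets, 31.0% had every ap_GFP array above every reference array, and 29.4% every slou_RFP array. It rose by 0.46 ± 0.14 on slou_RFP (limma, adjusted p = 0.0457), where replicate 2 was the highest array, and differed by 0.32 ± 0.14 on ap_GFP (adjusted p = 0.139). Without ap_GFP replicate 3 and slou_RFP replicate 2 the differences were 0.36 on ap_GFP (limma, adjusted p = 0.0161) and 0.30 on slou_RFP (adjusted p = 0.0351), both of them called. Leaving out both arrays raised the number of higher calls over all probe sets too, as given for Lim1. On ap_GFP Ptx1 was also called with only the 2 groups compared (0.0319), with array weights (0.0245) and without slou_RFP replicate 2 (0.0204). With only the 2 groups compared slou_RFP was not called (0.0921), so that which reporter passes depends on the setting. The call on slou_RFP was lost when any 1 of ap_GFP replicate 1, 2 or 3, slou_RFP replicate 3 or twi_actin_GFP replicate 1, 2 or 3 was left out, with adjusted p between 0.0586 and 0.145.

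Of the other bicoid- and paired-type homeodomain genes, 13 of 16 were measured. With all 9 arrays none was called higher, and 3 fell on ap_GFP and 4 on slou_RFP. Without both divergent arrays 1 was higher and 3 were lower on ap_GFP, and 2 were higher and 4 lower on slou_RFP. With array weights 2 were higher and 5 lower on each. The goosecoid gene Gsc fell to a dim signal (-2.09 ± 0.27 and -2.27 ± 0.27). The limb factor gene aristaless (al) fell (-1.24 and -1.35) and was not dim. The glial gene repo fell as well (-0.81 and -0.90). The head gene orthodenticle (oc) fell by 0.65 on slou_RFP and differed by -0.49 on ap_GFP (adjusted p = 0.0608).

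Vg, known from the wing and from the late differentiation of ventral muscles, had a signal of 7.91, 7.72 and 8.45 on ap_GFP, 7.76, 7.15 and 7.88 on slou_RFP, and 7.07, 8.37 and 8.36 on twi_actin_GFP. All 3 groups overlapped, and the lowest array of all 9 was one of twi_actin_GFP. The difference was 0.09 ± 0.37 on ap_GFP (95% interval -0.76 to 0.94, limma, adjusted p = 0.879) and -0.34 ± 0.37 on slou_RFP (-1.19 to 0.51, adjusted p = 0.506). Without that array, twi_actin_GFP replicate 1, the differences were -0.34 (limma, adjusted p = 0.427) and -0.77 (adjusted p = 0.0873), and neither was called. The array was singled out here after its low vg value was seen, so these differences are given as description.

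The 3 genes that were higher in the reference were also at their lowest reference value on twi_actin_GFP replicate 1. Lim3, tup, eya and vg were each lower there than on twi_actin_GFP replicates 2 and 3, by 0.41 to 1.29 from the nearer of them. Genes that were high on the muscle reporters did not share 1 direction on it: lmd read 9.74 there against 8.05 and 8.21, sing 8.16 against 7.33 and 7.44, and slou 7.39 against 8.20 and 8.33. Without this array the change of Lim3 was -3.23 and -3.07, of tup -2.10 and -2.09, and of eya -1.74 and -1.84, so that their calls did not rest on it. Whether the makeup of this sort moved with these values was not tested.

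The list named vg partners held sd, the gene of Scalloped, and genes of the Hippo pathway. Of its 7 genes 6 were measured, without sd, which was not analysed here, so that none of the 6 encodes Vg's own partner Scalloped. On each muscle reporter 2 rose and none fell. The kinase gene wts rose by 0.83 ± 0.10 and 0.96 ± 0.10, and yki, whose product also binds Scalloped, by 0.53 ± 0.08 and 0.46 ± 0.08. The kinase gene hpo read 10.99, 10.97 and 10.43 on ap_GFP and 11.02, 9.73 and 10.99 on slou_RFP, and was not called in either comparison, nor were ex, mats and Tgi. With both divergent arrays left out, 4 of the 6 were higher in each comparison.

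**Figure D5:**
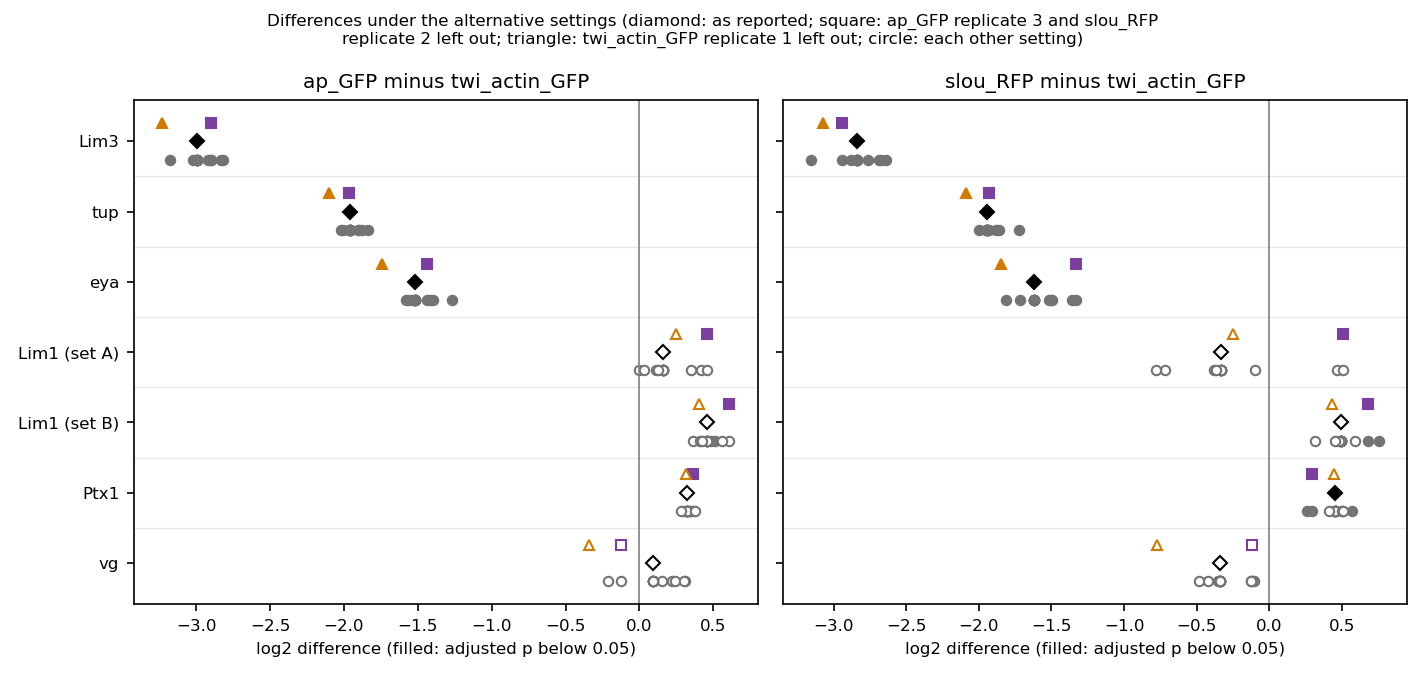
Log2 difference from twi_actin_GFP (horizontal axis) of each probe set (vertical axis) under the settings tried, without the submitters' threshold; the diamond is the reported value, the square leaves out ap_GFP replicate 3 and slou_RFP replicate 2, the triangle leaves out twi_actin_GFP replicate 1, circles are the other settings, and filled marks have an adjusted p below 0.05. Lim3, tup and eya stay filled throughout, with the smallest difference at -1.27, Lim1 set A moves from -0.33 to 0.51 on slou_RFP, and vg is never filled.

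Between the muscle reporters none of the 7 probe sets was called, nor was any of the 16377 (limma, with 430, or 2.63%, at an unadjusted p below 0.05). The submitters' threshold took 0 of the 7 as well, against 0.0427% of all higher and 0.0244% lower. None of the 7 had groups that did not overlap, against 3.22% of all higher and 3.89% lower on ap_GFP. The ap_GFP minus slou_RFP difference was -0.16 for Lim3 (95% interval -0.71 to 0.40), -0.02 for tup (-0.31 to 0.28), 0.10 for eya (-0.52 to 0.72) and -0.13 for Ptx1 (-0.45 to 0.19). It was 0.43 for vg (-0.42 to 1.28), 0.49 for Lim1 on set A (-0.91 to 1.90) and -0.03 on set B (-0.49 to 0.43). The interval for tup is the narrowest, whereas those for Lim1 on set A and for vg are too wide to place these genes. The genes that name the reporters did not part these groups either. The difference was 0.24 for ap (-0.49 to 0.97) and 0.05 for slou (-0.61 to 0.71). How far the sorts separate apterous from slouch muscles was not tested.

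Ordered by mean level, Lim3 and tup thus had the muscle reporters together, within their spread, and twi_actin_GFP above them, and eya the same. Ptx1 had twi_actin_GFP lowest, then ap_GFP, then slou_RFP, and with all 9 arrays in 1 fit only slou_RFP and twi_actin_GFP differed by the test, a call that other settings moved. For both Lim1 probe sets and vg no pair of groups differed by the test with all 9 arrays.

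Over the 9 arrays the profiles of Lim3 and tup correlated at r = 0.99, those of tup and eya at 0.94 and those of Lim3 and eya at 0.92. These values largely repeat the step between the reference and the muscle reporters. With group means removed they were 0.78, 0.61 and 0.31. Such correlations rest on 9 arrays that share their 3 reporters, and are given as description.

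The genes most like each member over the 9 arrays, among 10562 others, were then listed. For Lim3 they were CG6638 (Pearson r = 0.9991), Ance (0.9972) and CG31436 (0.9957), and 653 genes reached 0.95. For tup they were Mitf (0.9978), CG5335 (0.9973) and the integrin gene Itgbn (0.9965), with 713 genes at 0.95 or more. For eya they were PIG-S (0.9928), ND-B17 (0.9927) and DNAlig1 (0.992), with 201. Such numbers show how many genes follow the same step between groups.

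For the other members, whose step was small or absent, fewer genes came close. The nearest to Lim1 (set A) were Yeti (0.9909), CG10669 (0.9864) and CG7611 (0.9846), each lowest on slou_RFP replicate 2, as Lim1 was, with 95 genes at 0.95 or more. Ptx1 had CG16704 (0.9721), Z600 (0.9703) and scaf6 (0.97), each highest on slou_RFP replicate 2, with 13. The nearest to vg were pigeon (0.9109), CG32847 (0.909) and chm (0.8954), and 0 genes reached 0.95.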

How the data were processed

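Each of the 9 Affymetrix arrays had 1 deposited log2 value per probe set, made by the authors with RMA in Partek, per the submitters' processing notes. Its version is not given in the sources used here, and neither are its settings. Depth has no counterpart on arrays, and 3 arrays per group limit the precision. Values ran from 2.28 to 14.64. No normalization or filter was added. Names came from the platform annotation (11899 with 1 gene, 353 with several, 4125 unnamed). A listed gene stood by its 1-gene probe set with the highest mean. One model of 3 group means was fitted over all 16377 probe sets (limma 3.58.1, R 4.3.3, eBayes, no covariates), with Benjamini-Hochberg adjustment over all of them, after a test on simulated arrays. Values after ± are standard errors. Named genes were every member, the 3 genes most correlated with each, and every measured gene of the LIM, eya and vg partner lists. Up to 4 genes of each other list with the smallest adjusted p against twi_actin_GFP were also named. The genes mid, Hml and elav and the neighbouring genes stand outside this rule. Members and the 18 lists were chosen with earlier results of these data known. Alternatives were 17 settings. Replicate numbers were not taken as pairs: with group means removed, same-numbered arrays of different groups correlated at -0.62 to 0.49. No sequences of these genes were used here.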

Additional observations from a re-analysis of the deposited data

How the results depend on the processing

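Lim3, tup and eya kept direction and call against twi_actin_GFP under all 17 alternatives. Over these, Lim3 ranged from -3.23 to -2.82 on ap_GFP and from -3.15 to -2.64 on slou_RFP, tup from -2.10 to -1.84 and from -2.09 to -1.72, and eya from -1.74 to -1.27 and from -1.84 to -1.33. The number of the 7 probe sets called on ap_GFP rose from 3 to 5 with array weights and to 6 with ap_GFP replicate 3 and slou_RFP replicate 2 both left out; omission of 1 array gave 3 to 4 on ap_GFP and 3 to 5 on slou_RFP. With the replicate number as a block, 3 were called on each muscle reporter, the call of Ptx1 on slou_RFP being lost (adjusted p = 0.0502), and 3151 and 3320 of all probe sets were called; 3 of 9 arrays correlated best with their own number, so that the numbers were not read as pairs. Ptx1 on slou_RFP was also lost with only the 2 groups compared (0.0921), with trended robust variances (0.0539) and by the submitters' fold, and Ptx1 on ap_GFP was gained with only the 2 groups compared (0.0319), with array weights (0.0245), without slou_RFP replicate 2 (0.0204) and without both divergent arrays (0.0161). Over all probe sets, calls on ap_GFP went from 3593 to 6028 with array weights, 5968 without both divergent arrays, 5462 without slou_RFP replicate 2 and 2318 by the submitters' threshold. On slou_RFP they went from 3946 (1826 higher) to 9228 with array weights (5830 higher), 6155 without both divergent arrays, 2593 without twi_actin_GFP replicate 2, 2453 without twi_actin_GFP replicate 3, and 2247 by the submitters' threshold.

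Of 357 recomputed differences 189 had an estimate other than the reported one, since the other settings change only the variance, the probe sets tested, the threshold or an array outside the comparison. Among these 189 the sign turned in 23, in 1 of them with a call. For Lim1 (set A) the ap_GFP difference was -0.0019 without ap_GFP replicate 1, and the slou_RFP difference 0.47 with array weights, 0.51 without both divergent arrays (the call) and 0.51 without slou_RFP replicate 2. For vg on ap_GFP it was -0.22 with array weights, -0.12 without both divergent arrays or without ap_GFP replicate 3, and -0.34 without twi_actin_GFP replicate 1. Between the muscle reporters the turned values were, with array weights, -0.12 for Lim1 (set A), 0.13 for Lim3, 0.081 for Ptx1 and -0.073 for eya. Without both divergent arrays they were -0.051, 0.039, 0.062 and -0.11 for the same genes and -0.0064 for vg. Without slou_RFP replicate 2 they were -0.35 for Lim1 (set A), 0.025 for Ptx1 and -0.19 for eya. For Lim1 (set B) they were 0.12 without ap_GFP replicate 3 and 0.14 without slou_RFP replicate 1, and for tup 0.040 without ap_GFP replicate 1. Omission of 1 array gave ranges of -0.0019 to 0.46 for Lim1 (set A) and -0.34 to 0.31 for vg on ap_GFP, and -0.78 to 0.51 for Lim1 (set A) on slou_RFP. Between the muscle reporters the ranges were -0.35 to 0.94 for Lim1 (set A), -0.062 to 0.040 for tup, -0.25 to 0.025 for Ptx1 and -0.19 to 0.29 for eya. The causes were not tested.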

Other observations

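In gene order on arm 2L, as RefSeq's table for Release 6 gives it, 38 protein-coding genes lie between tup and Lim3, of which 29 had a probe set of their own. These were looked up after the values of tup and Lim3 were seen. On ap_GFP 5 of the 29 were higher than on twi_actin_GFP and 3 lower, and on slou_RFP 4 were higher and 4 lower, with median differences of 0.06 and 0.08, so that most genes of the interval did not pass. Within it Catsup, named as a negative regulator of tyrosine hydroxylase, fell (limma, differences of -1.82 and -1.89, adjusted p = 6.31e-05 and 5.12e-05), and CG10621 fell too (-2.91 and -2.99). In the other direction Swip-1 rose by 1.70 (adjusted p = 0.00174) and 1.55 (adjusted p = 0.00293), and CG10428, close to tup, by 1.38 and 1.20. On the far side of tup, CG10602 fell (-3.45 and -3.44).

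Near the other members the Lim1 neighbour Moe, the moesin gene, fell (-1.12 and -1.19, limma, adjusted p = 0.00126 and 0.000897). Near eya, CG9547 fell (-2.67 and -2.82, adjusted p = 1.88e-05 and 1.35e-05). CG31637, also near eya, fell on slou_RFP only (-0.95, adjusted p = 0.0278). CG9550 rose by 0.49 and 0.40 (adjusted p = 0.0189 and 0.0426), and Trmt6 was not called. The zinc finger gene sug, near vg, rose by 2.71 and 2.53 (adjusted p = 3.03e-05 and 4.13e-05), while the 5 measured genes among the 3 on each side of Ptx1 passed in neither comparison. Genes named here were picked after their values were seen.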
